A study of Mus musculus with 9 samples.

Results

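The 10 genes described here restrain growth, nutrient uptake or growth-factor signalling: the sestrins Sesn1, Sesn2 and Sesn3, the alpha-arrestins Arrdc3, Arrdc4 and Txnip, the p53 and cell cycle genes Trp53inp1 and Ccng2, and Foxo3 and Pik3ip1 of the PI3K pathway. They were selected on their log2 values in these arrays, as genes lowered in wild-type cells after LPS, and make up 10 of 19938 genes represented. Each was read from a single-gene probe set, and each of the 10 had exactly 1. The label holds for 8 of them only: Arrdc4 and Ccng2 were higher after LPS, not lower.

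RNA came from mouse dendritic cells grown for 8 days in vitro with GM-CSF out of bone marrow progenitors, on 9 arrays in 3 groups of 3. The groups were untransduced wild-type cells left unstimulated, untransduced wild-type cells 4 h after 100 ng/ml LPS (bacterial lipopolysaccharide, a ligand of Toll-like receptors), and LPS-treated cells carrying a retroviral hairpin against the coding sequence of JmjD2d, given the same dose for the same time. JmjD2d, the product of Kdm4d, removes methyl groups from histone H3, and cells infected with the pSir-delta U6CHisD vector were selected in 2 mM histidinol. All cells passed through progenitor culture in SCF, IL-3 and IL-6 and then through GM-CSF with SCF; no control hairpin and no unstimulated knockdown array was analysed here, so the hairpin cannot be told apart from infection and selection.

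Sestrins bind the GATOR2 complex and hold back mTORC1, the kinase that drives cell growth when amino acids are plentiful. Alpha-arrestins are adaptors that bring NEDD4-type ubiquitin ligases to membrane proteins, and Txnip of this family also binds thioredoxin and limits glucose uptake. Many of these genes are textbook targets of p53 or of the FoxO transcription factors, which AKT keeps out of the nucleus when PI3K signalling is on.

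The sequences ahead of the transcription start are shown for the members with the largest differences after LPS (Sesn1 and Arrdc3), for Txnip, and for both members that went the other way (Arrdc4 and Ccng2). Each line gives the 250 bases before a RefSeq start of assembly GRCm38.p6, written 5′ to 3′ along the gene. Capitals mark letters searched for on both strands: GTAAACA, the full binding site of forkhead factors such as Foxo3; TTGTTT, a shorter forkhead core that can overlap the full site; CACGTG, the E-box; and CACGNG followed after 5 bases by CACGNG again, E-box-like letters arranged as in the glucose-response site read by MondoA and MLX.
Sesn1 (start 2), chr10:41887189-41887438, plus strand: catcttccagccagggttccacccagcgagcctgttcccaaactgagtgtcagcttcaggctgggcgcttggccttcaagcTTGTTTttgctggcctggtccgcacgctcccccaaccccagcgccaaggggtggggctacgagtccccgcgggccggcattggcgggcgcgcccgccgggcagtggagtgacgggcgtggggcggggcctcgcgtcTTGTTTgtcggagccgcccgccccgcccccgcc
Arrdc3 (start 1), chr13:80883134-80883383, plus strand: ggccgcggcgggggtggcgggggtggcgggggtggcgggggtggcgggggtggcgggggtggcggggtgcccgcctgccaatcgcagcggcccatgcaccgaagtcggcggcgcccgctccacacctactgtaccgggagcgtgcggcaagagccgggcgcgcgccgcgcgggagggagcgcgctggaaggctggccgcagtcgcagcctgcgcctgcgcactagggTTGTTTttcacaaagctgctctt
Txnip, chr3:96557707-96557956, plus strand: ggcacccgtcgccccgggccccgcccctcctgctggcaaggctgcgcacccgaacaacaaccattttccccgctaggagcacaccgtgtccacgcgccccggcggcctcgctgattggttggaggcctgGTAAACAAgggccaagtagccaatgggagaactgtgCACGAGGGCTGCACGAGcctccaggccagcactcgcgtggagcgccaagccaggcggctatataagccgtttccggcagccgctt
Arrdc4, chr7:68749239-68749488, minus strand: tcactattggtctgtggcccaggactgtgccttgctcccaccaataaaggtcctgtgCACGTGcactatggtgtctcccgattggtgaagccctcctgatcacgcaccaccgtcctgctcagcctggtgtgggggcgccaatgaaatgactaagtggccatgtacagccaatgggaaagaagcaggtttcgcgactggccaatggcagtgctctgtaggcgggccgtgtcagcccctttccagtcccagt
Ccng2, chr5:93267323-93267572, plus strand: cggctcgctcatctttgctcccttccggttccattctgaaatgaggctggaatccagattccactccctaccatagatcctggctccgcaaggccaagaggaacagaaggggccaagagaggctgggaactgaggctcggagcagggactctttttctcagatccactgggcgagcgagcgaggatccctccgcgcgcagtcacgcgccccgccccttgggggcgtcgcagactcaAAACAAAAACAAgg

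The RefSeq table held windows for 9 of the 10 members, 12 windows in all because Sesn1 and Arrdc3 have several starts, and it held none for Trp53inp1. Txnip had GTAAACA at -121 to -115 from its start and the paired E-box-like motif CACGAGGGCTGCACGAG at -85 to -69. The forkhead full site was present in 3.17% of the 32851 windows of all genes and the paired motif in 0.0457%, 15 windows. The forkhead core occurred in 5 of the 12 member windows (4 of 9 genes) against 18.3% of all windows: in start 2 of Sesn1 at -169 and -33, in the overlapping windows of Arrdc3 starts 1 and 2, in Txnip, where it overlaps the full site, and in Ccng2 at -14 and -8. Sesn1 start 1 and Arrdc3 start 3 held no forkhead match, and the starts printed for these genes were picked because they held one; which start the probe sets read was not determined. So the core stood ahead of genes that were lower after LPS and of Ccng2, which was higher. The only E-box among the members, CACGTG at -193 to -188, was in Arrdc4 (6.02% of all windows). CCAAT, also searched for on both strands but left in lower case above, was found in 8 of the 12 member windows, against 33.8% of all windows. These windows belong to 6 genes (Sesn1, Sesn2, Sesn3, Arrdc3, Txnip and Arrdc4), with the most matches, 6, in Arrdc4. The overlapping windows of Arrdc3 starts 1 and 2 hold the same match. Such matches are letters in a window, and binding was not measured. The motifs were chosen with earlier results of these data known, so the shares of all windows are no test of the matches.

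**Figure D1:**
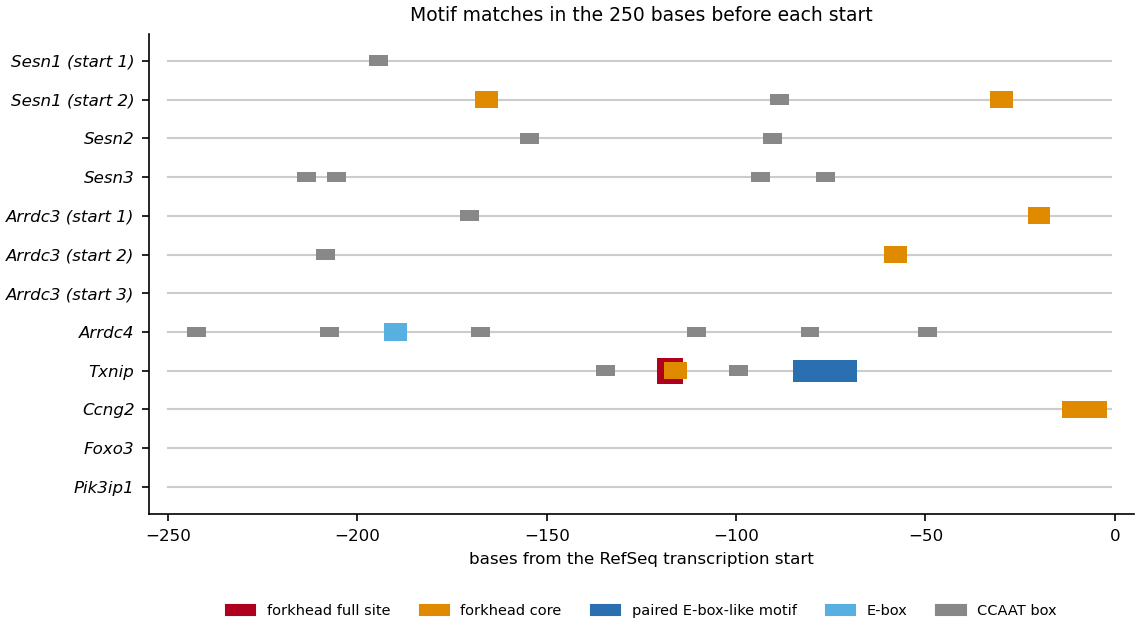
Motif matches in the 250 bases before each RefSeq start of 9 members, by distance in bases from the start; each grey line is a window and coloured blocks are matches on either strand. Txnip carries the full forkhead site and the paired E-box-like motif, Arrdc4 an E-box, and CCAAT boxes lie in 8 of the 12 windows; Foxo3, Pik3ip1 and start 3 of Arrdc3 hold none of the motifs searched.

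The arrays were alike in scale, with median log2 values of 7.217 to 7.315. Kdm4d itself read 7.54 to 7.79 in wild-type cells after LPS and 7.11 to 7.43 in knockdown cells (log2 difference -0.37, SE 0.13, limma adjusted p = 0.278), a difference that was not called. Unstimulated wild-type cells read 7.24 to 7.65, which overlaps the knockdown values, and all Kdm4d values lay near the array medians. Of 15 measured dendritic cell markers 8 lay above the array median on all 9 arrays, while Flt3 and Dpp4 lay below it throughout; of 8 lymphocyte markers none lay above it on all arrays. Dendritic cell markers averaged 9.62 to 10.74 in unstimulated, 9.84 to 10.71 in LPS-treated wild-type and 8.61 to 9.82 in knockdown cells, and neutrophil markers varied most between arrays (8.55 to 10.18, 8.98 to 10.95 and 7.89 to 10.20). In the unstimulated, wild-type LPS and knockdown groups, replicate 2 was the lowest array for 31%, 48.5% and 44.2% of all genes and the highest for 37.9%, 33.8% and 36%. Values are given by array, and counts of calls are also given without the arrays numbered 2, a setting added after the members' values were seen.

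The first comparison sets wild-type cells after LPS against unstimulated wild-type cells. The members were chosen with this contrast known, so their differences are a description with no test. For 6 of the 10 genes all 3 LPS values lay below all 3 unstimulated values, which was so for 16.5% of all genes, and for 2 they lay above (12.8% of all genes). The median difference of the members was -0.88 on the log2 scale, against 0.04 over all genes.

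Sesn1, a sestrin induced by p53, read 11.45, 10.33 and 11.83 in unstimulated cells (replicates 1 to 3 here and below) and 8.81, 8.95 and 9.16 after LPS. That is 4.7-fold lower (log2 difference -2.23, SE 0.33). The groups stood well apart, and unstimulated replicate 2 was the array closest to the LPS-treated level; without it the difference was -2.67. Sesn2, a sestrin that senses leucine, went from 9.68, 8.83 and 9.42 to 8.52, 8.03 and 8.25, a difference of -1.05 (SE 0.25) without overlap. Sesn3 read 8.89, 7.50 and 8.58 before LPS and 7.52, 7.53 and 7.18 after it (-0.91, SE 0.32). Here unstimulated replicate 2 lay among the LPS values, so the groups overlapped, and the difference was -1.32 without that array. All 3 sestrins were therefore lower in group mean, Sesn1 by the most, and the arrays numbered 2 showed the smallest difference for each: -1.38 for Sesn1, -0.80 for Sesn2 and 0.04 for Sesn3.

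Arrdc3, an adaptor that acts on receptors such as the beta2-adrenergic receptor, had the largest difference of the 10. It read 10.02, 9.37 and 10.52 in unstimulated cells and 7.25, 7.45 and 7.61 after LPS, 5.79-fold lower (log2 difference -2.53, SE 0.50). Every pair of arrays with the same number showed it, by -2.77, -1.92 and -2.92. Txnip read 12.82, 12.65 and 12.97 before LPS and 12.31, 12.63 and 12.53 after it, a difference of only -0.32 (SE 0.11). The lowest unstimulated and the highest LPS value, both from arrays numbered 2, nearly met. Arrdc4, a relative of Txnip that glucose also induces, went the opposite way, from 8.65, 8.68 and 8.49 to 9.22, 9.10 and 9.41. That is 1.56-fold higher (0.64, SE 0.15), with no overlap. The alpha-arrestins thus did not move as a family.

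Trp53inp1, a p53-induced protein with roles in autophagy and cell death, read 12.19, 11.07 and 12.08 in unstimulated cells and 10.03, 10.05 and 9.59 after LPS. It was 3.7-fold lower (log2 difference -1.89, SE 0.30), in all 3 numbered pairs (-2.15, -1.03 and -2.49). Ccng2, an unconventional cyclin linked to cell cycle arrest, was higher after LPS: 9.55, 9.20 and 9.43 became 10.09, 9.86 and 9.86 (0.54, SE 0.20), with no overlap. These 2 genes, grouped for their link to growth arrest, therefore differed in opposite directions.

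Foxo3, a forkhead factor that turns on arrest and stress genes, read 10.01, 9.89 and 10.07 before LPS and 9.29, 9.46 and 9.42 after it. Its difference of -0.60 (SE 0.08) was 1.51-fold, and its arrays varied least of those lower after LPS, with an SD of 0.09 in each wild-type group. Pik3ip1, a membrane protein that inhibits the PI3K catalytic subunit, read 9.66, 8.89 and 9.68 before LPS and 8.21, 9.15 and 8.33 after it (-0.85, SE 0.31). Replicate 2 ran against the other pairs for this gene, at 0.25 against -1.45 and -1.35, and the groups overlapped. With all arrays numbered 2 left out its difference was -1.40.

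**Figure D2:**
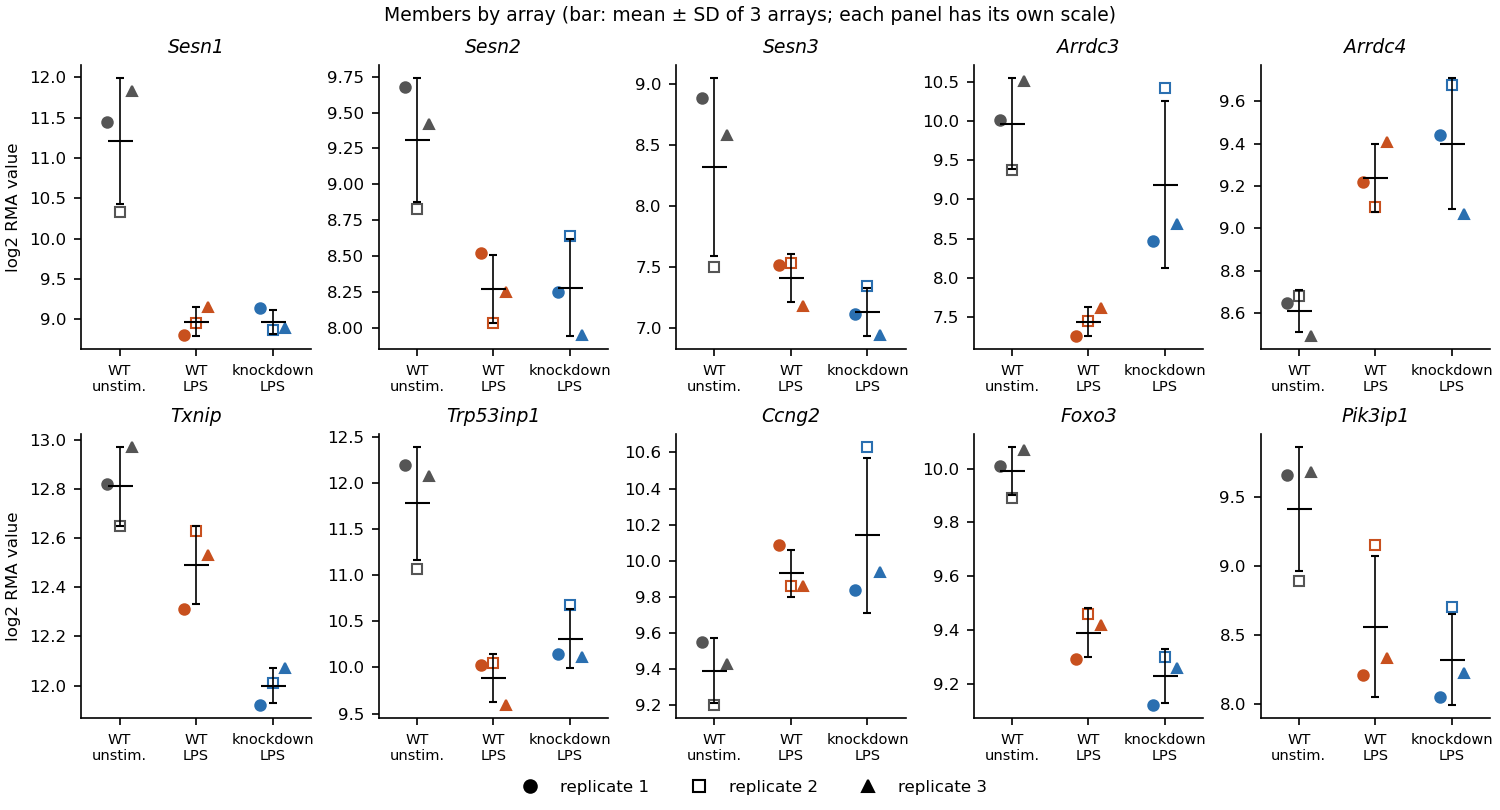
Log2 RMA value of each member on the 9 arrays, by group (grey unstimulated wild-type, orange wild-type after LPS, blue knockdown after LPS); symbols give the replicate number, and bars are mean ± SD of 3 arrays. Sesn1 lies at 10.33 to 11.83 before LPS and at 8.81 to 9.16 in both LPS-treated groups, whereas Arrdc3 in knockdown cells lies at 8.47 to 10.43, above all wild-type LPS values.

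The second comparison sets knockdown cells against wild-type cells, both after LPS, and asks whether the members differ with JmjD2d knockdown. The knockdown arrays took no part in choosing the members, but the wild-type LPS arrays did and are the baseline here. They enter the 2 comparisons with opposite sign. A choice of genes with low wild-type LPS values by itself favours a higher reading in knockdown cells. How far it did so for these members was not tested. By limma none of the 10 was called, against 0.762% of all genes called in either direction. At an unadjusted p under 0.05 there were 2 members, Arrdc3 and Txnip, against 13.1% of all genes. With the replicate number added as a block, limma again called none of the 10, against 2.75% of all genes. The groups did not overlap for 1 lower member, Txnip (8.38% of all genes), and for 2 higher members, Arrdc3 and Trp53inp1 (8.21% of all genes).

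Arrdc3 differed most. Knockdown cells read 8.47, 10.43 and 8.69, all above the wild-type LPS values of 7.25, 7.45 and 7.61. The mean was 3.38-fold higher (log2 difference 1.76, SE 0.50, 95% confidence interval 0.62 to 2.89, limma adjusted p = 0.159), and Arrdc3 ranked 71 of 19938 genes by absolute difference. Knockdown replicate 2 alone reached the range of unstimulated wild-type cells (9.37 to 10.52), and the 2 other knockdown arrays lay between both wild-type groups. Without that array the difference was 1.14 (adjusted p = 0.197), and with all arrays numbered 2 left out it was 1.15 (adjusted p = 0.0456; over all settings the adjusted p ran from 0.0456 to 0.396). All 3 numbered pairs had the same direction, at 1.22, 2.97 and 1.08.

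Txnip was lower in knockdown than in wild-type cells after LPS. Its knockdown values of 11.92, 12.01 and 12.07 lay below all 3 wild-type LPS values, whose lowest was 12.31. The log2 difference was -0.49 (SE 0.11, 95% confidence interval -0.73 to -0.25, limma adjusted p = 0.085, and 0.0598 with the replicate block), and the numbered pairs gave -0.39, -0.61 and -0.46. Trp53inp1 read 10.15, 10.68 and 10.11, just above the highest wild-type LPS value of 10.05 (0.42, 95% confidence interval -0.26 to 1.11, limma adjusted p = 0.599). Against wild-type LPS the mean was thus higher for Arrdc3 and lower for Txnip, both uncalled, although LPS-treated wild-type cells had lower means than unstimulated cells for both genes.

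The sestrins gave no called difference with knockdown. Sesn1 averaged 8.97 in both LPS-treated groups, with knockdown arrays at 9.14, 8.87 and 8.90 and a 95% confidence interval of -0.76 to 0.75. Sesn2 read 8.25, 8.64 and 7.95 (interval -0.55 to 0.58) and Sesn3 7.11, 7.34 and 6.94 (difference -0.28, SE 0.32). Limma adjusted p ran from 0.75 to 0.998, which does not show that the sestrins were alike in both groups.

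Among the remaining members, Arrdc4 read 9.44, 9.68 and 9.07 in knockdown cells (difference from wild-type LPS 0.15, 95% confidence interval -0.20 to 0.50). Ccng2 read 9.84, 10.63 and 9.94 (0.21, -0.25 to 0.66) and Pik3ip1 8.05, 8.70 and 8.22 (-0.24, -0.94 to 0.47). Foxo3 read 9.12, 9.30 and 9.26, lower in each numbered pair by a like amount (-0.18, -0.17 and -0.15; mean -0.16, interval -0.35 to 0.02). Limma adjusted p ran from 0.435 to 0.783 for these 4 genes. Replicate 2 was the highest knockdown array for 8 of the 10 members and the lowest unstimulated array for 9 of 10, against 36% and 31% of all genes.

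Beside these values stand the cell type markers. Of 15 dendritic cell markers none was called between knockdown and wild-type cells by limma, 9 were lower at an unadjusted p under 0.05 and 7 were lower with the replicate block, at a median difference of -1.04. Macrophage markers averaged 10.15 to 10.53 in wild-type cells after LPS and 10.41 to 10.79 in knockdown cells. Of these 9 markers 1 was called higher, Spic (log2 difference 2.74), while the median difference of the list was 0.09. At an unadjusted p under 0.05, 2 were higher and 1 lower. Mast cell and basophil markers averaged 7.19 to 7.63 and 6.37 to 6.77, with 0 of 9 called. Of these 5 were lower at an unadjusted p under 0.05 and 3 with the replicate block. Fcer1a, Ms4a2, Tpsb2, Cma1 and Mcpt8 were below the array median on all 9 arrays. Of 10 neutrophil markers (median difference -0.56) 2 were lower at an unadjusted p under 0.05 and 1 with the block. Of 7 progenitor markers (median -0.29), which share Kit and Gata2 with the mast cell list, 2 were lower in each setting. Limma called none of either list. Their part in the members' differences was not tested, and in such bulk RNA fewer cells of a type and less RNA per cell cannot be told apart.

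**Figure D3:**
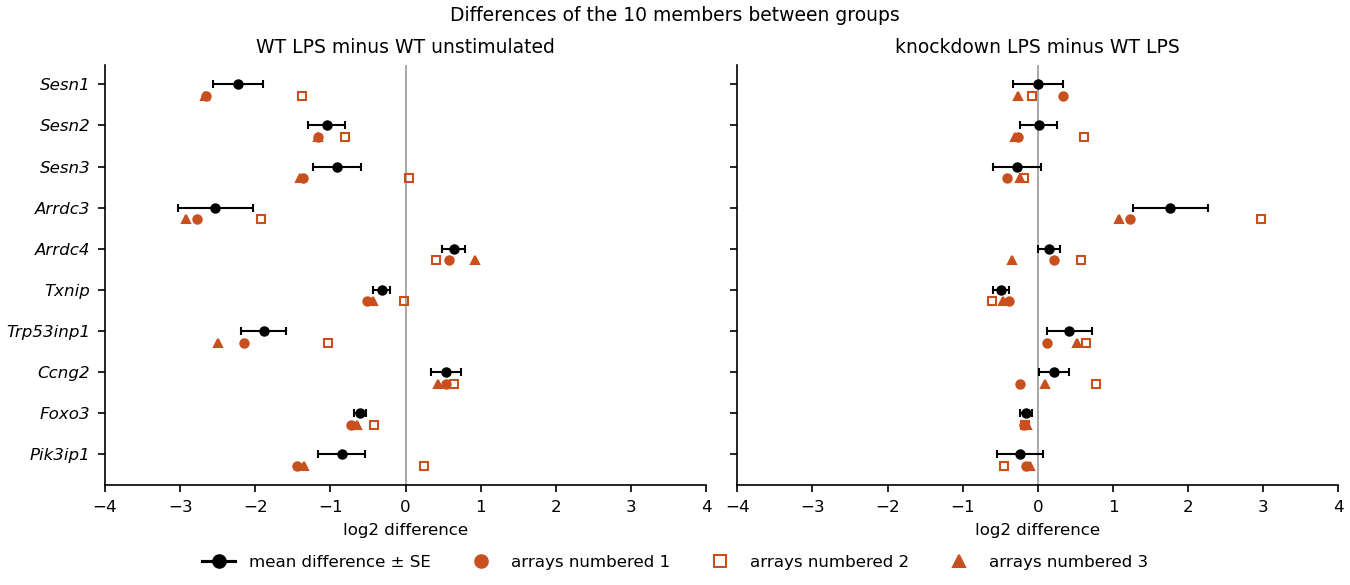
Log2 differences of the 10 members: wild-type LPS minus unstimulated (left) and knockdown LPS minus wild-type LPS (right). Black points are mean differences ± SE from the limma fit, and orange symbols the differences between arrays of the same replicate number. Both panels use the same wild-type LPS arrays, with opposite sign, so they are not independent. Arrdc3 is at -2.53 on the left and 1.76 on the right, and Sesn1 at -2.23 and at a mean equal to wild-type LPS.

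LPS-treated knockdown cells were also set beside unstimulated wild-type cells, which shares the unstimulated arrays with the contrast used to choose the members and is given without a test. For 7 members all knockdown values lay below all unstimulated values (15% of all genes) and for 2 above (12.2%). The differences were -2.24 for Sesn1, -1.03 for Sesn2, -1.19 for Sesn3 and -1.46 for Trp53inp1. Those of Txnip (-0.81) and Foxo3 (-0.76) compare with -0.32 and -0.60 in wild-type cells. Arrdc4 was at 0.79 and Ccng2 at 0.75, again higher than in unstimulated cells. Arrdc3 alone overlapped, at -0.78, or -1.39 without knockdown replicate 2. In order of group means, unstimulated wild-type, wild-type LPS and knockdown LPS stood from high to low for Txnip, Foxo3, Sesn3 and Pik3ip1. Of these only Txnip had no overlap between neighbouring groups. Sesn1 had equal means in both LPS-treated groups.

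The mean of the 10 genes, each centred on its own mean over the 9 arrays, was 0.78, 0.13 and 0.79 in unstimulated cells, -0.39, -0.29 and -0.38 in wild-type cells after LPS, and -0.36, 0.12 and -0.40 in knockdown cells. The arrays numbered 2 of the unstimulated and knockdown groups were almost level with each other in this mean, but not gene by gene. Knockdown replicate 2 stood above unstimulated replicate 2 for Ccng2 (1.43), Arrdc3 (1.05) and Arrdc4 (0.99). It stood below for all other members, by log2 differences from -0.16 (Sesn3) to -1.46 (Sesn1). Among the 1433 other genes whose values varied with an SD of at least 0.5 over the 9 arrays, the 5 closest to this mean pattern by root mean square difference were Rmnd5a (0.08), a subunit of a ubiquitin ligase complex, Zmat3 (0.13), an RNA-binding p53 target, Lrp6 (0.14), a Wnt co-receptor, Ccdc69 (0.14) and Mknk1 (0.16), a kinase of the translation factor eIF4E. Rmnd5a read 10.87, 10.19 and 10.80 before LPS, 9.55, 9.64 and 9.68 after it and 9.62, 9.92 and 9.62 in knockdown cells. Zmat3 had knockdown replicate 2 at 9.46, above 8.98 in knockdown replicate 1.

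**Figure D4:**
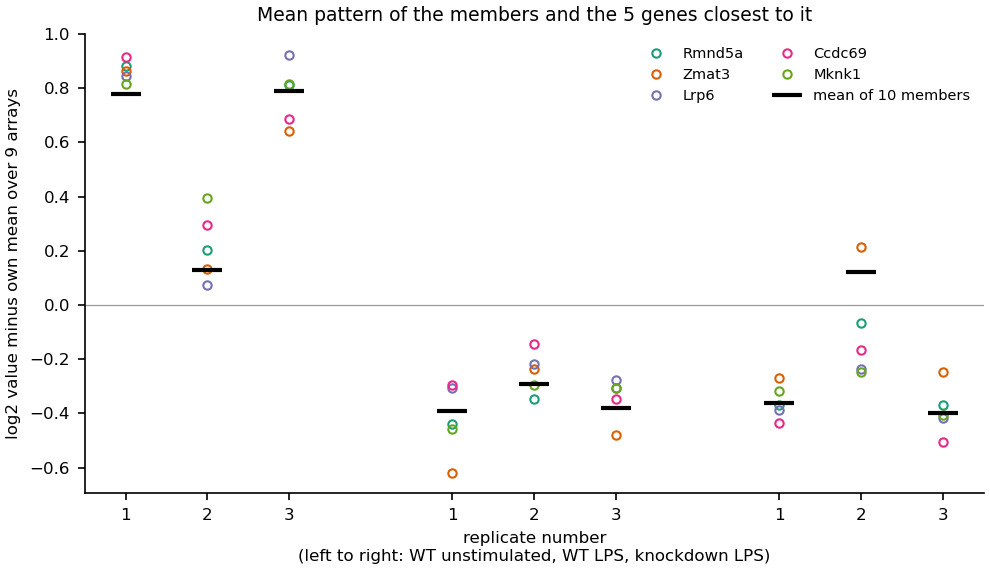
Mean of the 10 members (black bars) and the 5 other genes closest to it (open circles) on the 9 arrays, in log2 units minus each gene's own mean. Unstimulated replicates 1 and 3 stand at 0.78 and 0.79, unstimulated replicate 2 at 0.13, and knockdown replicate 2 at 0.12 stands above the other LPS-treated arrays.

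The other genes of these pathways were described in 8 lists that hold none of the members, with 167 of 175 genes measured. These lists were tested in both comparisons. After LPS in wild-type cells 27 fell (16.2%, against 6.86% of all genes) and 11 rose (6.59%, against 3.99%), with a median difference of -0.16. Without the arrays numbered 2 the counts were 54 lower (32.3%, against 15.8% of all genes) and 19 higher (11.4%, against 8.81%). Between knockdown and wild-type cells 1 was higher and 1 lower (0.599% each, against 0.401% and 0.361% of all genes), and without the arrays numbered 2 these counts were 12 and 3 (7.19% and 1.8%, against 2.14% and 1.21% of all genes). The counts are by limma with adjustment over all genes. Some genes are in more than 1 list: these totals count each gene once, and the counts by list below count it in each list. The lists were chosen with earlier results of these data known, so their shares against all genes are not an independent test. Their genes averaged 9.52 to 10.35 by list, above the array medians of 7.217 to 7.315. The share of all genes is thus not a background matched for expression, and whether expression level accounts for the higher shares was not tested.

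Among sestrin partners and mTORC1 control genes 3 of 35 fell and 1 rose after LPS (8 fell with the replicate block, and 13 without the arrays numbered 2). Deptor, an inhibitor of mTOR, fell by 1.20 on the log2 scale (SE 0.12, adjusted p = 0.00103), from 10.73, 10.45 and 10.81 to 9.41, 9.48 and 9.48. Castor2, a relative of the arginine sensor, fell by 1.06 and the Ragulator subunit Lamtor4 by 0.64, whereas Wdr59, a GATOR2 subunit, rose by 0.85 (adjusted p = 0.00396 to 0.0376). Of 13 genes for AMPK, the energy-sensing kinase that sestrins also act on, 3 fell and none rose (6 fell without the arrays numbered 2): the gamma subunits Prkag2 (-1.50, adjusted p = 0.00312) and Prkag1 (-0.59), and Strada (-0.58), a partner of the AMPK-activating kinase Stk11. None of either list was called between knockdown and wild-type cells by limma, with 7 and 4 of their genes, respectively, at an unadjusted p below 0.05; without the arrays numbered 2, 3 and 2 were called higher. The replicate block called 1 higher among the former and 1 lower among the latter.

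Of 14 other arrestins and NEDD4-type ligases 2 fell after LPS, the beta-arrestin Arrb1 (-0.83, adjusted p = 0.00441) and Arrdc2 (-0.29), and 4 fell without the arrays numbered 2. Wwp1, a NEDD4-type ubiquitin ligase, was the only gene of the 8 lists called higher in knockdown cells in the unpaired fit to all arrays, at 12.03, 12.25 and 11.86 against 11.07, 10.98 and 11.15 in wild-type cells after LPS. It was 1.97-fold higher (log2 difference 0.98, SE 0.10, limma adjusted p = 0.00929, and 0.015 without the arrays numbered 2), with no overlap, and also lay above its unstimulated values of 11.40, 11.39 and 11.40. In the thioredoxin and MondoA-MLX list of 18 genes Txnrd1, which reduces thioredoxin, rose by 1.21 (adjusted p = 0.00996), while Mxd4, a repressor partner of MAX, fell by 1.25 and mitochondrial Txn2 by 0.36. Here 3 rose without the arrays numbered 2, and 2 rose with the replicate block. In each of these settings 3 fell. None was called with knockdown, against 3 higher and 1 lower both at an unadjusted p below 0.05 and as called without the arrays numbered 2.

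PI3K and AKT genes went both ways after LPS, with 6 of 27 lower and 3 higher (7 lower and 5 higher with the replicate block, and 9 lower and 5 higher without the arrays numbered 2). The phosphatase Inpp5d fell by 1.17 (SE 0.17, adjusted p = 0.00479), the catalytic subunit Pik3cd by 1.04 and the growth factor receptor Igf1r by 0.48, whereas Pik3r5, a regulatory subunit, rose by 0.90, Rictor of mTORC2 by 0.57 and the adaptor Pik3ap1 by 0.36. Igf1r was the only gene of the lists called lower in knockdown cells in the unpaired fit to all arrays; the replicate block called 4 lower over the lists, 2 of them in the PI3K list, and 6 PI3K genes were lower and 2 higher at an unadjusted p below 0.05. Without the arrays numbered 2 the PI3K list had 1 called higher and 1 lower. Igf1r read 10.02, 9.73 and 9.92 before LPS, 9.47, 9.40 and 9.37 after it and 8.77, 8.78 and 8.83 in knockdown cells (log2 difference from wild-type LPS -0.62, SE 0.08, limma adjusted p = 0.0198). The 3 groups did not overlap.

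Of 26 FoxO factors and targets 5 fell and 1 rose after LPS (8 fell with the replicate block, and 8 fell and 4 rose without the arrays numbered 2). Fbxo32, a ubiquitin ligase subunit, fell by 0.55, the autophagy kinase Ulk2 by 0.77 and the mitophagy kinase Pink1 by 0.89, and Sod2, the mitochondrial superoxide dismutase, rose by 0.89 (adjusted p = 0.00485 to 0.0289). Sod2 in unstimulated replicate 2 read 13.46, above 12.49 and 12.80 and near the LPS level of 13.77 to 13.85. The 25 genes of the p53 pathway were split, with 5 higher and 4 lower (6 and 6 without the arrays numbered 2). The death receptor Fas rose by 1.90, the kinase Plk2 by 2.33 and Dram1, a lysosomal autophagy protein, by 0.95, while Ei24 fell by 0.55, the DNA repair gene Xpc by 1.07 and Zmat3 by 0.99 (adjusted p = 0.0006 to 0.02). Among 17 other proliferation brakes 3 fell and none rose (8 fell without the arrays numbered 2): Tob1, an anti-proliferative protein, by 1.85 (adjusted p = 0.00159), Mxd4 again, and the transcription factor Klf4 by 1.12 (adjusted p = 0.0423, and 0.0603 with the replicate block). Tob1 averaged 10.95 before LPS and 9.10 after it, and read 9.49, 9.89 and 9.15 in knockdown cells. In these last 3 lists limma called none between knockdown and wild-type cells, although at an unadjusted p below 0.05 the FoxO list had 2 higher and 3 lower, the p53 list 2 and 1, and the brakes 2 and 0. The replicate block called 1 FoxO gene lower. Without the arrays numbered 2, limma called 1 FoxO gene lower, 2 p53 genes higher and 1 brake lower.

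**Figure D5:**
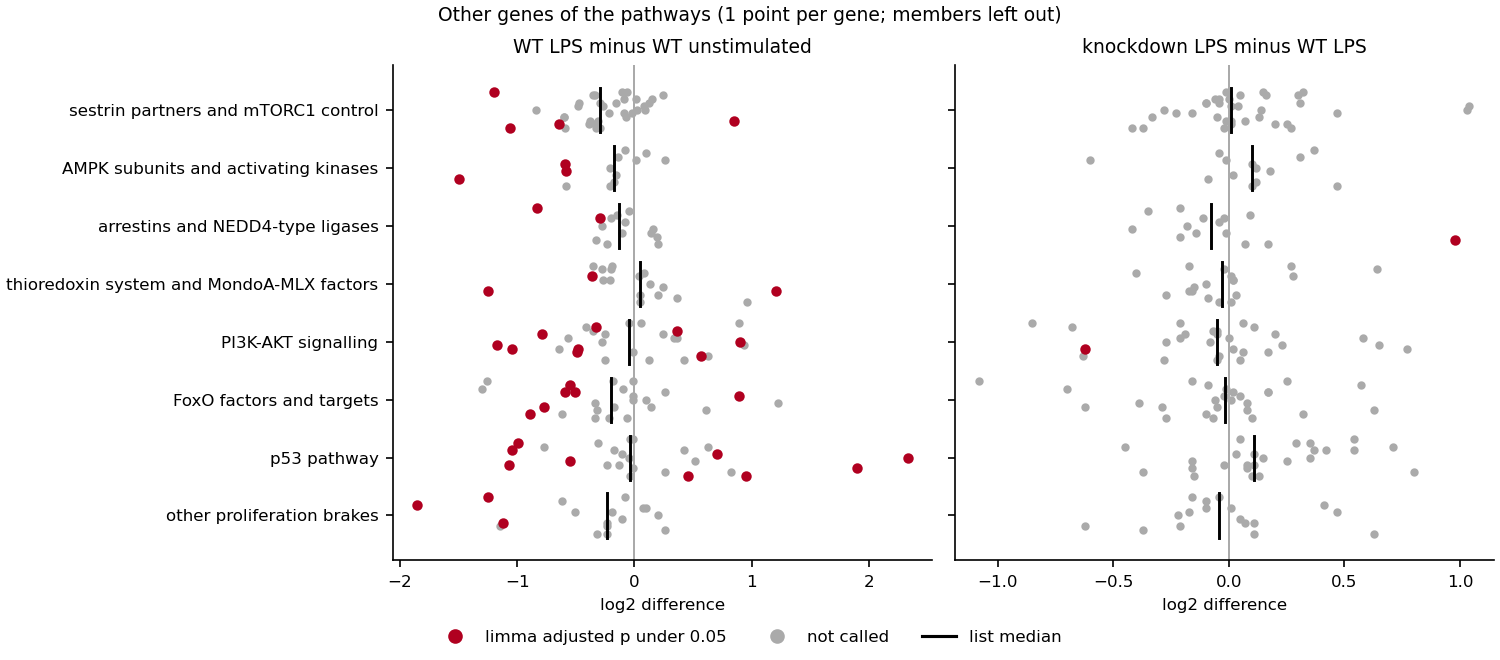
Log2 differences of the other genes in 8 pathway lists (1 point per gene, red where the limma adjusted p is under 0.05, black line the list median) for wild-type LPS minus unstimulated (left) and knockdown LPS minus wild-type LPS (right); the axes differ in range. On the left 27 red points lie below 0 and 11 above, counting each gene once; on the right, in the unpaired fit to all arrays, only Wwp1 (0.98) and Igf1r (-0.62) are red.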

How the data were processed

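RNA was hybridised to 9 mouse gene arrays. Per the submitters' processing notes the authors made the deposited log2 values with RMA (which corrects background, normalizes between arrays and summarises probe sets), with no version or genome build given in the sources used here. No further normalization was applied. Of 35556 probe sets, 21789 named 1 gene, and 21698 of these were named through the RefSeq gene table of GRCm38.p6. A gene was represented by its single-gene probe set with the highest mean, giving 19938 genes.

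Group means were fitted to all 9 arrays with limma 3.58.1 in R 4.3.3 (6 residual and 2.31 prior degrees of freedom), two-sided, with Benjamini-Hochberg adjustment across all genes, and a gene with an adjusted p below 0.05 counts as called. The fit was tested on simulated data: of 200 genes changed 4-fold among 19938, 97.5% were recovered in each comparison. The simulated noise was independent between arrays, and the largest knockdown difference of a member was 3.38-fold (Arrdc3). The recovery therefore does not show how often differences as small as those of the members would be called. The number of arrays limits the precision.

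The members, lists and motifs were chosen with earlier results of these data known. Named list genes were up to 3 per direction and list with the smallest p after LPS and every list gene called with knockdown. Same-numbered arrays deviated together (correlation across genes 0.14 to 0.48 in all 9 pairs, against -0.41 to 0.25 otherwise). They were taken as pairs in the replicate block and in the differences given by number. The main fit did not use this pairing. Alternatives were the replicate block, quantile normalization, a filter at a mean log2 of 6, the mean of a gene's probe sets, a variance trend, 6 arrays only, and leaving out each array; leaving out all arrays numbered 2 was added after seeing the data.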

Additional observations from a re-analysis of the deposited data

How the results depend on the processing

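Over 16 alternative settings each member kept the direction of its LPS difference. The members were chosen with this contrast known, so this is a description only. Several settings, such as the replicate block or leaving out a knockdown array, also could not change the LPS difference itself. The replicate block changed no member's call between knockdown and wild-type cells; it raised the counts of genes higher and lower in knockdown cells from 80 and 72 to 301 and 247, and the counts after LPS from 796 and 1368 to 1035 and 1908. With only the 6 arrays compared the knockdown counts were 14 and 19, and with quantile normalization 111 were lower. Leaving out all arrays numbered 2, a choice made after seeing the data, gave 1757 higher and 3152 lower after LPS and 427 and 241 with knockdown. Leaving out a single array gave 393 (without unstimulated replicate 3) to 1246 (without LPS replicate 2) higher and 475 to 2178 lower after LPS, and 11 to 257 higher and 7 to 126 lower with knockdown, the extremes of the last 3 without LPS replicates 3 and 2. The causes were not tested. Of the uncalled knockdown differences, several changed sign: Sesn1 ran from -0.09 to 0.09, Sesn2 from -0.16 to 0.18, Ccng2 from -0.04 to 0.36 and Pik3ip1 from -0.42 to 0.06 when 1 array was left out (Sesn1 0.09, 0.05 and 0.03, and Sesn2 -0.10 and -0.16, where reversed). Without the arrays numbered 2 they were 0.04 for Sesn1, -0.28 for Sesn2, -0.06 for Arrdc4 and -0.08 for Ccng2, and Sesn2 was at -0.04 with quantile normalization.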
